A study of Mus musculus with 24 samples.

Results

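Differentiating C2C12 cells with an shRNA against p68 were compared with cells that carried the empty vector. C2C12 is a mouse myoblast line. After transfer from growth medium (GM) to differentiation medium (DM) it leaves the cell cycle and fuses into multinucleated myotubes. Per the labels, the cells were transduced with the pSuperR vector alone (vector) or with pSuperR holding a short hairpin RNA against p68 (p68 shRNA), which lowers the matching messenger RNA by RNA interference. The comparison was defined by the sample titles and held the 12 arrays of cells in DM out of the 24 arrays of the series. Of these, 3 p68 shRNA and 3 vector arrays were of the design labelled MA, and 3 and 3 of the design labelled MB, which mostly carries other probe sets. The same constructs in GM, again 3 against 3 arrays per design, served as the reference for what the shRNA changed without the change of medium. All groups share the C2C12 line and the pSuperR backbone. The labels do not say whether the transduced cells were a clone or a pool, or how long they stayed in DM. Whether replicates came from separate cultures is not stated, and the p-values therefore reflect the scatter among these arrays alone, which may be technical.

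p68, encoded by Ddx5, and its close relative p72, encoded by Ddx17, are DEAD-box RNA helicases, enzymes that unwind or remodel RNA. Both take part in splicing and in the processing of microRNA precursors, and both act as coactivators of MyoD, the transcription factor that commits cells to the muscle lineage. During C2C12 differentiation MyoD, myogenin and MEF2 factors switch on genes of the contractile apparatus, while genes of DNA replication and mitosis are switched off. The stated purpose of the series was to follow muscle gene expression when p68 and p72 are targeted by RNA interference. The labels name a hairpin against p68 alone.

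Values below are deposited signals on a linear scale, 1 per probe set and array. Differences are log2 changes, shRNA over vector, on the scale log2(signal + 15), which understates the change of weak signals. Each is followed by its standard error from a limma fit over the 12 arrays of a design, with 3 arrays per group. A probe set or gene is said to have risen or fallen where the Benjamini-Hochberg adjusted p was under 0.05 among all probe sets tested. The MA arrays of a group correlated with each other at a mean r of 0.951 to 0.983, with vector replicate 3 of DM the lowest. In the MB arrays r lay between 0.825 and 0.886, with vector replicate 2 of DM the lowest, and the median residual SD was 0.523 against 0.214 in the MA arrays. Signals under 15 made up 9.03% of MB vector replicate 2 of DM and 15.6 to 19.9% of the other MB arrays. Myod1 and Cdh15, markers of the myogenic lineage, were present in all DM arrays of MA (signals 1485 to 2074 and 780.3 to 1469).

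In DM the target of the hairpin was lower at 1 of its 6 probe sets. At the Ddx5 probe set with the highest signal, the shRNA arrays read 373.1, 302.5 and 302.5 and the vector arrays 673.5, 541.0 and 407.9. All shRNA arrays lay below all vector arrays, and the change was -0.68 ± 0.15 (adjusted p = 0.00677). The exact two-sided permutation test on the 3 against 3 arrays gave p = 0.1, the smallest value this design allows. None of its other 5 probe sets passed, apart from 1 of them without vector replicate 3 (adjusted p = 0.0149) or with quantile normalization (adjusted p = 0.0399). Across the GM arrays the Ddx5 probe set that passed in DM averaged 372.0 (shRNA) and 464.3 (vector). That GM change, -0.31 ± 0.15, missed the threshold (adjusted p = 0.287), so a knockdown in GM was not shown there. Its DM change minus its GM change, -0.38 ± 0.22, missed it as well (adjusted p = 0.332). Ddx17, the paralogue, read 721.2, 713.4 and 727.7 with the shRNA against 682.0, 626.1 and 706.3 with the vector, and its change of 0.10 ± 0.09 did not pass (adjusted p = 0.516).

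On the MA design 1533 of 14367 probe sets were higher with the shRNA (10.7%) and 897 lower (6.24%), of which 317 and 156 changed at least 2-fold. The shRNA and vector arrays did not overlap at 1494 of the higher and 878 of the lower probe sets. With 1 probe set per named gene, the one with the highest mean, 1048 of 8639 genes rose (12.1%) and 576 fell (6.67%), and the median over all of them was 0.06. These shares are the background for the MA counts of gene groups below. For MB counts it is 1.35% rising and 0.667% falling among 8695 named genes. In bulk RNA, a smaller share of differentiated cells and less RNA per differentiated cell cannot be told apart. The bar plot of gene groups gives the share of each group that rose and fell.

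**Figure D1:**
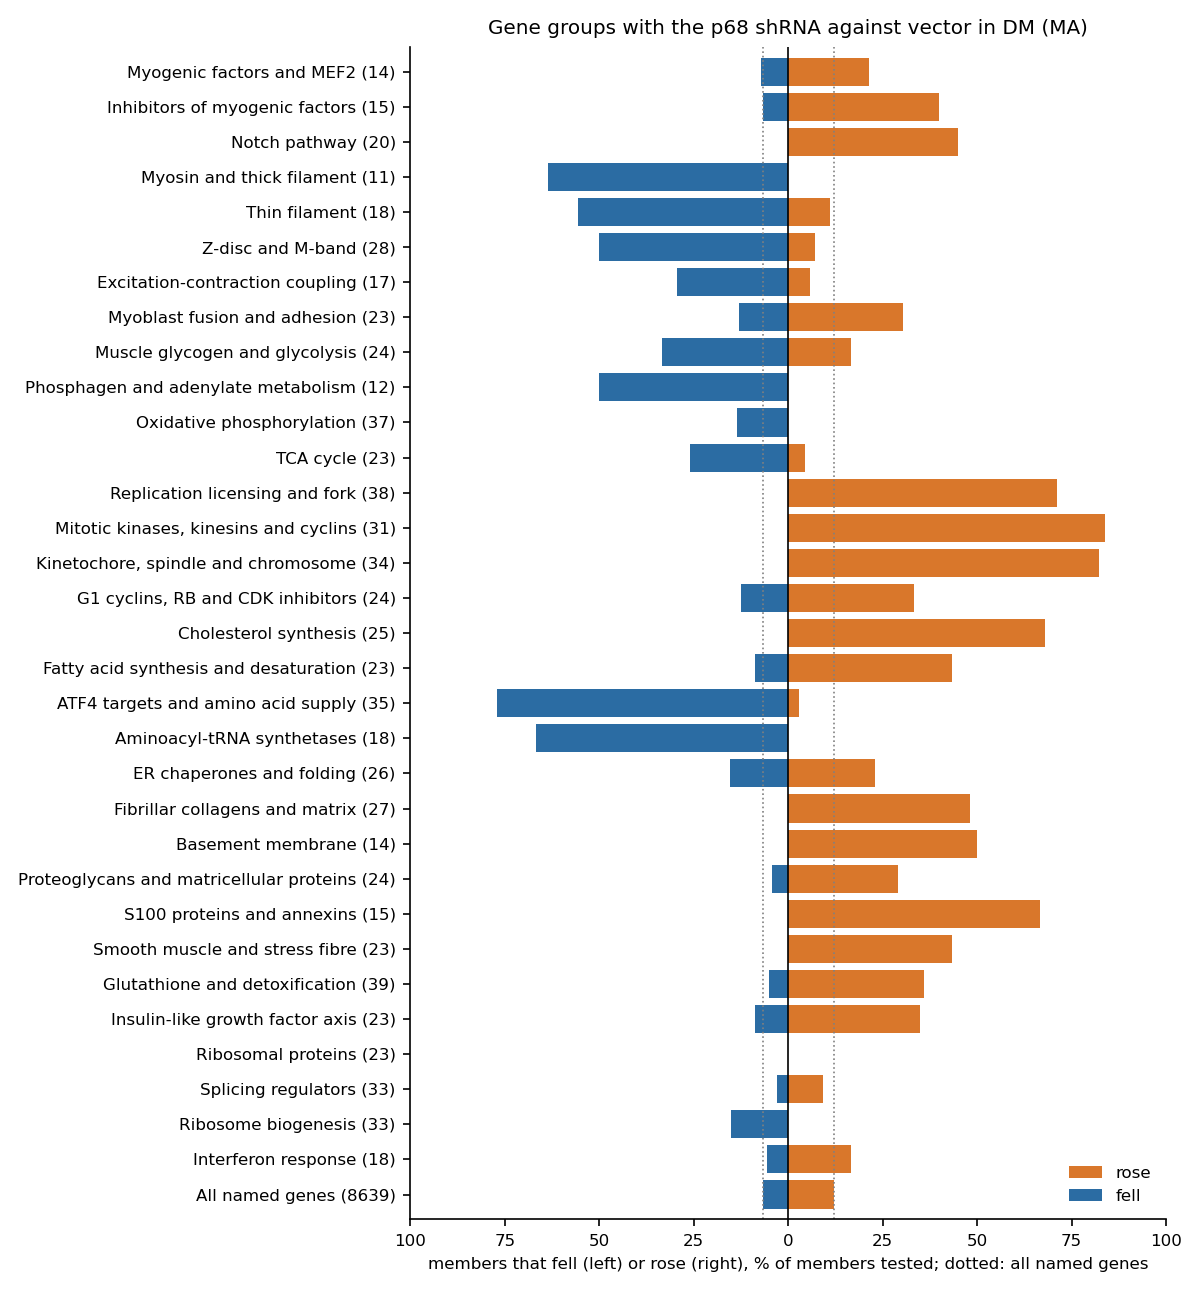
Percent of the tested members of each gene group that rose (right, orange) or fell (left, blue) with the p68 shRNA in DM on the MA design (limma, adjusted p under 0.05, 1 probe set per gene); the number of tested members stands in brackets and the lowest bar gives all 8639 named genes, of which 12.1% rose and 6.67% fell. Contractile, glycolytic and ATF4 groups extend to the left, and replication, mitosis, cholesterol, Notch, matrix and S100 groups to the right.

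Among the transcription factors of myogenesis, the signal of the initiating factors stayed within the spread of the arrays while that of Mef2c was lower. Myogenin (Myog) read 5076, 4977 and 5613 with the shRNA against 5574, 6104 and 8902 with the vector, with overlapping groups and a change of -0.36 ± 0.17 (adjusted p = 0.174). Myod1 read 1485, 1526 and 1734 against 1562, 1831 and 2074, again with overlap (-0.20 ± 0.13, adjusted p = 0.358). Mef2c, a MADS-box factor that acts with MyoD and myogenin on late muscle genes, fell at all 5 of its tested probe sets. At the probe set with the largest change the shRNA arrays read 36.58, 33.60 and 20.15 and the vector arrays 273.7, 194.4 and 98.12. The groups did not overlap there, and the change was -2.09 ± 0.29 (adjusted p = 0.000182). The other 4 probe sets of Mef2c changed by between -1.83 and -1.13. In GM the mean Mef2c signal at these probe sets was at most 16.9 with either construct. Smarcd3, a muscle subunit of the SWI/SNF chromatin remodelling complex that is recruited with MyoD, fell from 1178, 1336 and 1574 in the vector arrays to 801.6, 869.1 and 979.5 (-0.61 ± 0.12, adjusted p = 0.00278).

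Of 14 tested genes in the list of myogenic factors, 3 rose and 1 fell. The risers were Pax7, a marker of undifferentiated myogenic cells, the E-protein Tcf3, which pairs with MyoD, and the homeobox factor Six4. Pax7 read 176.0, 175.6 and 158.5 with the shRNA against 95.07, 75.26 and 90.66 with the vector (0.86 ± 0.14, adjusted p = 0.000578). Pax7 was also carried by the MB design through another probe set, where the shRNA arrays read 2486, 3099 and 2426 and the vector arrays 1241, 1013 and 1853. Neither design showed overlap of the groups, and the MB change was 0.99 ± 0.19 (adjusted p = 0.0108), which did not pass without shRNA replicate 2 (adjusted p = 0.0819) or vector replicate 2 (adjusted p = 0.0541). In GM, by contrast, Pax7 on MA had mean signals of 114.2 with the shRNA against 113.1 with the vector, and the difference between the media passed (0.85 ± 0.19, adjusted p = 0.0124). Without vector replicate 3 of DM a second list member fell.

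In the list of inhibitors of the myogenic factors and related proteins, 6 of 15 genes rose and 1 fell. In GM 3 of them rose and 0 fell, where 4.36% of named genes rose. Id proteins bind E-proteins and keep them from pairing with MyoD. Id3 read 247.8, 266.2 and 276.6 with the shRNA against 114.3, 102.7 and 118.3 with the vector, a rise of 1.14 ± 0.10 (adjusted p = 5.27e-06) with no overlap. It rose in GM too (0.73 ± 0.10, adjusted p = 0.000892), and the difference between the media did not pass (adjusted p = 0.102). Id2 rose from 39.82, 13.83 and 18.22 to 80.17, 80.17 and 93.20 (1.41 ± 0.21, adjusted p = 0.000395). Its change in GM (0.46 ± 0.21, adjusted p = 0.241) and the difference (adjusted p = 0.0619) did not pass. Id1 was at 275.6 to 332.1 with the vector and 345.3 to 373.1 with the shRNA, and did not pass (adjusted p = 0.212), but it rose in GM (0.45 ± 0.11, adjusted p = 0.0245). The Hes and Hey family members Hes1, Hey1, Heyl and Hes6 rose as well. Heyl did not pass in a fit of the 6 DM arrays alone (adjusted p = 0.0526). Hes6 did not pass without shRNA replicate 2 (adjusted p = 0.0893) or vector replicate 2 (adjusted p = 0.0713). The vector means of Hes6 were 905.8 in DM and 468.9 in GM, and whether it acts as an inhibitor in these cells was not tested. The list member that fell was Bhlhe40, a repressor of the same protein class (-0.91 ± 0.11).

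Hes1, Hey1 and Heyl are targets of Notch, a receptor of cell contact that holds myoblasts undifferentiated. In the Notch list 9 of 20 members rose and 0 fell on MA (median 0.55). On MB 1 of 5 rose and 0 fell, and 4 of the 5 values were negative (median -0.13). That rise was lost without shRNA replicate 2 or 3 or vector replicate 2. Hes1 read 239.7, 233.8 and 272.2 with the shRNA against 93.71, 78.84 and 105.7 with the vector, and Hey1 read 172.4, 165.0 and 170.9 against 101.4, 80.95 and 72.38. In both genes all shRNA arrays lay above all vector arrays, with changes of 1.29 ± 0.18 (adjusted p = 0.000189) and 0.89 ± 0.16 (adjusted p = 0.00113). Among receptors, Notch1 changed by 0.82 ± 0.12 and Notch3 by 0.87 ± 0.13, and the ligand Jag2 by 0.71 ± 0.16. For Hes1 and Notch3 the change in DM also exceeded that in GM, by 1.50 ± 0.25 (adjusted p = 0.00203) and 1.31 ± 0.18 (adjusted p = 0.000398), while Hey1 rose in both media.

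Proteins of the thick filament, the myosin heavy and light chains that pull in contraction, fell in 7 and rose in 0 of 11 cases (median -0.65). Perinatal myosin Myh8 read 47.59, 58.20 and 53.20 with the shRNA against 296.5, 261.1 and 243.7 with the vector (-2.05 ± 0.17, adjusted p = 2.67e-06). Embryonic myosin Myh3, which is made earlier, read 1416, 1370 and 1338 against 2061, 2042 and 2064, a fall of -0.58 ± 0.11 (adjusted p = 0.00258). The groups of both genes were apart, with a wider gap for Myh8. The light chain Myl4 fell by 1.05 ± 0.12 on the log2 scale and the fast light chain Mylpf by 0.76 ± 0.13. Their mean signals with the shRNA were still 3174 and 4883, against 60.01 and 48.97 with the shRNA in GM.

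The thin filament, along which myosin moves, is built of actin, tropomyosin and the calcium-sensing troponins. Of its 18 tested genes 10 fell and 2 rose (median -0.57). The fast troponin Tnni2 read 2519, 2644 and 2670 with the shRNA against 5314, 6369 and 7565 with the vector (-1.28 ± 0.16, adjusted p = 5.94e-05). Tnni2 was lower in GM too (-1.43 ± 0.16), but near the floor. The GM arrays gave 2.743, 10.25 and 3.815 (shRNA) and 36.97, 35.75 and 47.91 (vector). Tnnt3 fell by 0.99 ± 0.15 and Tnnc2 by 0.89 ± 0.18 on the log2 scale. The skeletal and cardiac actins were outside this pattern. Acta1 read 7562, 8300 and 8942 with the shRNA against 7214, 9314 and 14290 with the vector, and Actc1 6719, 6906 and 7255 against 5923, 7983 and 12160. Their groups overlapped, and neither passed (-0.26 ± 0.20 and -0.26 ± 0.21). The 2 that rose, Tpm3 and Tpm4, encode tropomyosins that are also made outside muscle, and without shRNA replicate 2 or 3 or vector replicate 1 the count was 1.

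Tropomyosin genes make muscle and non-muscle forms by alternative splicing, and their probe sets moved in opposite directions. One Tpm1 probe set read 4428, 4992 and 5134 with the shRNA against 6041, 6999 and 8890 with the vector (-0.57 ± 0.14, adjusted p = 0.0103). Another read 823.4, 880.1 and 921.7 against 356.0, 359.1 and 395.8 (1.21 ± 0.10, adjusted p = 2.14e-06). Both were separated between the groups, and another, weaker probe set rose too (not in a fit of the 6 DM arrays alone, adjusted p = 0.0551), so the direction for Tpm1 depends on the probe set. Tpm3 likewise had 2 probe sets that rose (0.48 ± 0.14 and 0.72 ± 0.10) and 2 that fell (-0.82 ± 0.20 and -0.94 ± 0.19). The weaker of the rises did not pass without shRNA replicate 2 or 3 or vector replicate 1 (adjusted p = 0.104, 0.0939 and 0.0933). In the GM vector cells the rising Tpm1 probe set had a mean of 1806 and the falling one 1388. Only 3 genes had probe sets that passed in both directions, of 349 MA genes with at least 2 passing probe sets, and the other was Eps8. Which transcript each of these probe sets detects is not given in the sources used here.

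Z-disc and M-band proteins anchor the filaments at the ends and in the middle of the sarcomere. They fell in 14 and rose in 2 of 28 cases (median -0.49), and several of the largest changes of the comparison lay here. Actn2, the muscle alpha-actinin of the Z-disc, read 535.6, 487.2 and 576.1 with the shRNA against 1888, 1876 and 2267 with the vector (-1.88 ± 0.14, adjusted p = 8.19e-07). Myoz2, which binds Actn2 and calcineurin, read 289.4, 351.8 and 336.9 against 1372, 1423 and 1249 (-2.001 ± 0.233), and the M-band protein Myom1 90.02, 126.7 and 107.4 against 544.5, 424.8 and 413.9 (-1.95 ± 0.22). All of these groups were apart by at least 3-fold between the nearest arrays. The stretch-responsive ankyrin repeat proteins of the sarcomere moved with them: Ankrd1 fell by 1.90 ± 0.15 and Ankrd2 by 1.78 ± 0.22 on the log2 scale. So did Csrp3, the muscle LIM protein (-1.42 ± 0.19). The 2 that rose were Fhl1 and Obsl1, by 0.36 and 0.38. Their number was 0 without shRNA replicate 1, shRNA replicate 2 or vector replicate 2, and 1 without any of the other 3 arrays.

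**Figure D2:**
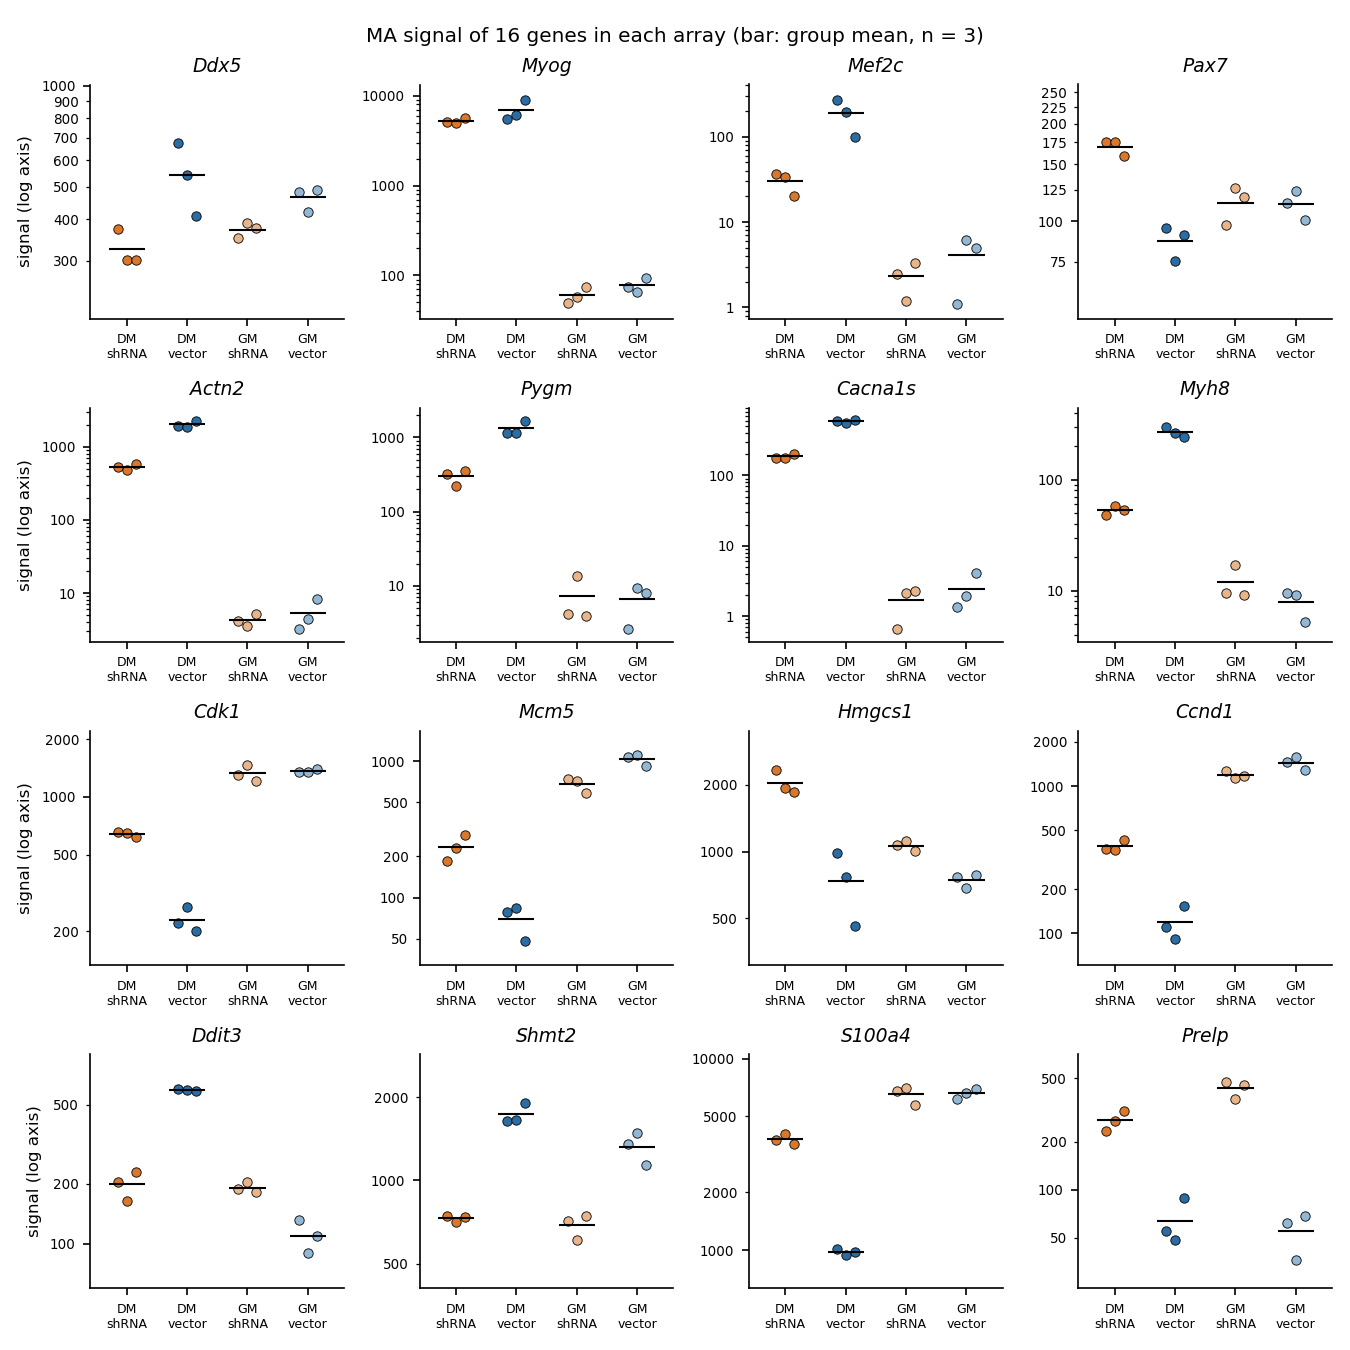
Deposited MA signal (log axis, arbitrary units) of 16 genes in each array, by group (DM shRNA, DM vector, GM shRNA, GM vector; 3 arrays each; the bar is the group mean). Actn2 and Pygm lay lower with the shRNA in DM, Myog overlapped, and Cdk1 and Hmgcs1 lay higher.

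Proteins that couple the electrical signal of the membrane to calcium release fell in 5 and rose in 1 of 17 cases (median -0.40). The voltage sensor Cacna1s read 174.9, 179.7 and 203.8 with the shRNA against 590.8, 557.8 and 610.2 with the vector (-1.58 ± 0.14, adjusted p = 4.19e-06). The calcium pump Atp2a1 read 2025, 2013 and 2457 against 4355, 5320 and 6787 (-1.32 ± 0.15), and the release channel Ryr1 618.0, 512.9 and 534.6 against 1080, 1189 and 1584 (-1.17 ± 0.23). No group of these 3 overlapped. On the MB design 3 of 14 tested members fell and 0 rose, against 0.667% and 1.35% of named genes on that design. The channel subunit Cacnb1 read 263.9, 462.5 and 397.5 there with the shRNA against 1102, 1207 and 1755 with the vector (-1.82 ± 0.31, adjusted p = 0.00429). The others were Ryr1 and Jsrp1, and the MB count was 1 without shRNA replicate 1, shRNA replicate 2 or vector replicate 3. Pvalb, a calcium buffer of fast fibres, went the other way on MA and rose in DM (0.70 ± 0.15) and in GM (0.87 ± 0.15).

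At the surface of the cell the genes moved in both directions. Of the fusion and adhesion list 7 of 23 rose and 3 fell. Itgb1bp2 (melusin) and caveolin Cav3, proteins of the mature muscle membrane, fell by 1.24 ± 0.25 and 0.99 ± 0.17 on the log2 scale. Mymk, the membrane protein that drives fusion, read 3680, 3979 and 4125 with the shRNA against 3935, 4920 and 7432 with the vector. Its groups overlapped, and the change of -0.42 ± 0.19 did not pass (adjusted p = 0.164), although it did without vector replicate 1 (adjusted p = 0.0285). Myof, a ferlin of fusing myoblasts, rose from 138.9, 144.4 and 58.44 to 240.9, 304.1 and 325.8 (1.32 ± 0.25). The laminin receptor Itga6 rose in DM (0.82 ± 0.18) and fell in GM (-0.64 ± 0.18), and the difference passed (1.47 ± 0.25, adjusted p = 0.00203). The fall in GM did not pass without shRNA replicate 2 or 3 or any of the vector arrays (adjusted p of 0.0722 to 0.149). The acetylcholine receptor subunits Chrng, the fetal one, and Chrnd fell among 11 tested genes of the neuromuscular junction (-0.83 ± 0.20 and -0.71 ± 0.19). Chrnd did not pass without shRNA replicate 1, shRNA replicate 2 or vector replicate 2 (adjusted p = 0.0891, 0.0754 and 0.0662).

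Enzymes of glycogen use and glycolysis fell in 8 and rose in 4 of 24 cases. Pygm, which releases glucose from glycogen in muscle, read 320.3, 223.9 and 353.0 with the shRNA against 1155, 1165 and 1675 with the vector (-2.10 ± 0.22, adjusted p = 1.66e-05). Hk2, the insulin-responsive hexokinase of muscle, read 276.0, 205.2 and 217.9 against 828.3, 714.7 and 713.3 (-1.64 ± 0.15). Hexokinase Hk1, made in most tissues, went the other way and read 786.6, 847.6 and 659.0 against 266.5, 358.0 and 376.5 (1.17 ± 0.14, adjusted p = 4.83e-05). All 3 genes were separated between the groups. The same contrast was seen for phosphofructokinase, where the muscle form Pfkm changed by -0.82 ± 0.12 and the liver form Pfkl by 0.88 ± 0.12. It was also seen for phosphoglycerate mutase, where Pgam2 changed by -1.35 ± 0.15 and Pgam1 by 0.62 ± 0.10.

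After these values were seen, 18 pairs of a muscle form and a form made more widely were written down from textbook knowledge, so their counts describe the data and support nothing. Of the 18 muscle forms 17 fell and 0 rose. Of the 17 wider forms with a tested probe set 9 rose and 0 fell, and in 9 pairs the muscle form fell while the other rose. Besides the 3 enzymes above these were Pygm with Pygb, Fabp3 with Fabp5, Actn2 with Actn1, Flnc with Flna, Csrp3 with Csrp2 and Des with Vim. Fabp3, the fatty acid carrier of muscle, read 187.9, 174.4 and 209.5 against 730.5, 749.8 and 590.6 with the vector, while Fabp5 read 581.6, 652.7 and 568.7 against 196.7, 165.3 and 159.1. In that pair both groups were clearly apart (-1.77 ± 0.15 and 1.71 ± 0.10). In the cytochrome oxidase pairs the muscle subunits Cox6a2 and Cox8b fell by 1.88 ± 0.19 and 1.37 ± 0.22 on the log2 scale, while Cox6a1 (0.03 ± 0.10) and Cox8a (-0.10 ± 0.17) did not pass. Flnc fell by 0.51 ± 0.14 on the log2 scale, but not without vector replicate 2 or 3 or any of the shRNA arrays (adjusted p of 0.0604 to 0.069). Des fell by 0.52 ± 0.16 on the log2 scale, but not without shRNA replicate 1 or 2 or vector replicate 2 or 3 (adjusted p of 0.105 to 0.138). The exception was Acta1, given above.

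**Figure D3:**
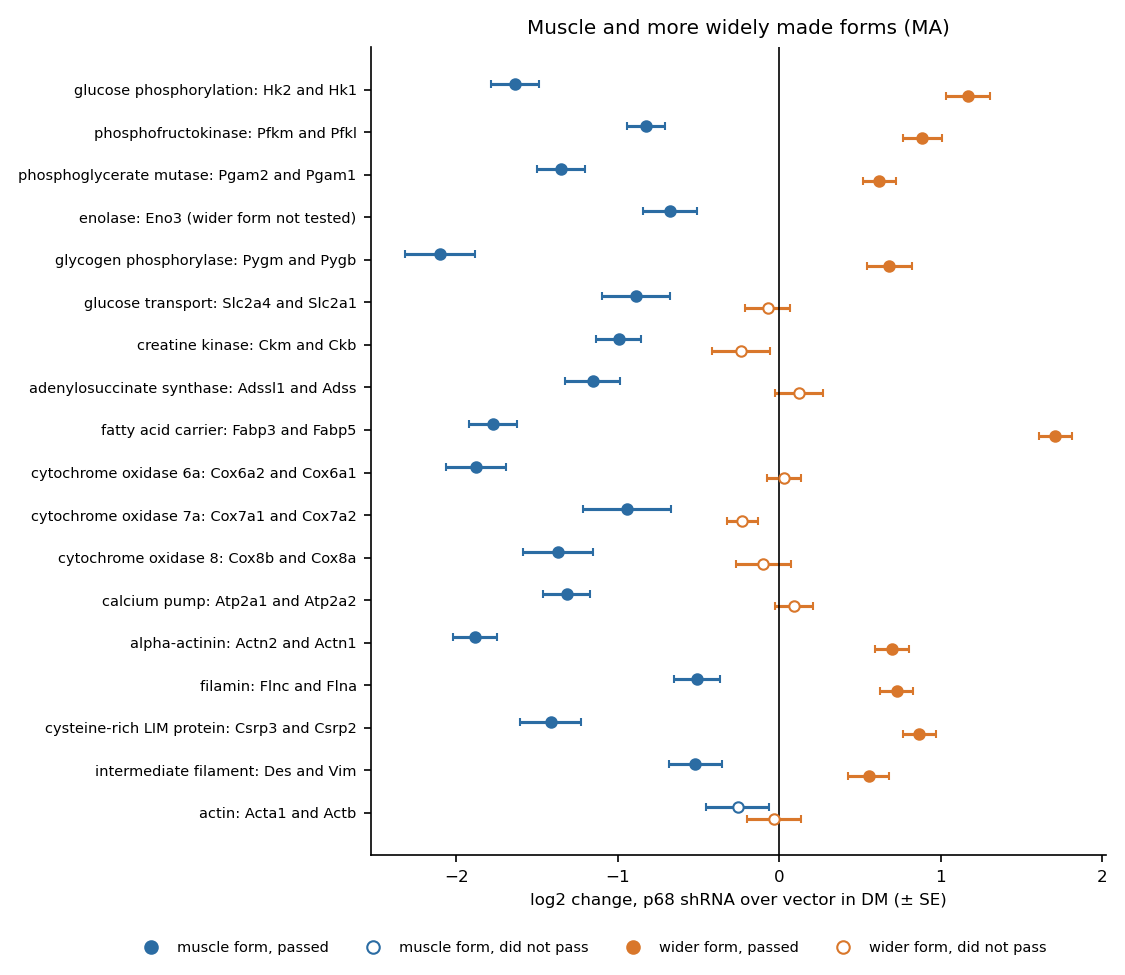
Log2 change with the p68 shRNA in DM (MA, shRNA over vector, points with standard errors from limma) of 18 pairs of genes for the same process, with the muscle form in blue and the more widely made form in orange; filled points passed at an adjusted p under 0.05. All muscle forms except Acta1 lie left of 0 with filled points, and 9 of 17 wider forms lie right of 0 with filled points.

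Creatine and adenylate enzymes, which buffer ATP in contracting muscle, fell in 6 and rose in 0 of 12 cases (median -0.46). Muscle creatine kinase (Ckm) read 3068, 3249 and 3529 with the shRNA against 5527, 6370 and 7955 with the vector (-0.99 ± 0.14, adjusted p = 0.000199). The brain form Ckb, at 3332 to 4355 and 3125 to 5829, overlapped and did not pass, except without vector replicate 1 (adjusted p = 0.0321). Adssl1, of the muscle purine nucleotide cycle, fell by 1.16 ± 0.17 on the log2 scale. Of the mitochondrial groups, 6 of 23 enzymes of the TCA cycle fell and 1 rose (median -0.20), with 2 rises without vector replicate 1. Among all named genes 6.67% fell in the fit of all arrays. Of 37 subunits of oxidative phosphorylation 5 fell and 0 rose (median -0.23), which is above that background by few genes, and the number moved with single arrays, to 2 without shRNA replicate 1, 3 without shRNA replicate 2 and 9 without vector replicate 1. Of 27 genes of fatty acid use and muscle mitochondria 7 fell and 2 rose, with 4 falling without shRNA replicate 2 or vector replicate 2.

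Genes of the dividing cell were higher with the shRNA. Of 38 tested replication genes 27 rose and 0 fell (median 0.70), and of 31 mitotic kinases, kinesins and cyclins 26 rose and 0 fell (median 1.18). Of 34 genes of the kinetochore, spindle and chromosome 28 rose and 0 fell (median 1.06). Cdk1, the kinase that drives entry into mitosis, read 656.0, 647.4 and 616.9 with the shRNA against 220.1, 268.0 and 199.4 with the vector (1.43 ± 0.11, adjusted p = 2.13e-06). Ccnb2, one of its cyclins, read 310.6, 309.5 and 323.5 against 106.9, 119.4 and 104.2 (1.40 ± 0.11), and Ube2c, which tags cyclins for destruction, 374.1, 369.6 and 409.9 against 107.3, 116.4 and 106.9 (1.67 ± 0.11). All shRNA arrays of these genes lay more than 2-fold above the highest vector array. In the GM vector cells, which divide, the mean signals were 1363, 638.2 and 1010, so the shRNA cells in DM lay between the DM and the GM vector cells. The DM and GM vector values are given as levels, since the comparison of DM with GM shares arrays with that of shRNA and vector.

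In replication, the helicase subunit Mcm5 read 186.2, 229.4 and 286.7 with the shRNA against 78.96, 83.23 and 48.02 with the vector (1.56 ± 0.18, adjusted p = 4.11e-05). Uhrf1, which brings DNA methylation to replicated DNA, read 137.5, 132.8 and 169.9 against 49.89, 31.80 and 38.82 (1.56 ± 0.14). Of 11 tested genes of deoxynucleotide synthesis 3 rose and 0 fell on MA (median 0.31), and 0 of 6 passed in limma on MB (median -0.12, 0 at an unadjusted p under 0.05). The 3 were Dut (0.77 ± 0.12), the thymidine kinase Tk1 at 385.3, 443.2 and 372.9 against 97.25, 122.0 and 85.82 (1.84 ± 0.15) and the ribonucleotide reductase subunit Rrm1 at 345.5, 340.3 and 304.0 against 140.2, 153.1 and 132.1 (1.14 ± 0.10). None of these groups overlapped. On the MB design Bub1b, a checkpoint kinase of the spindle, read 780.3, 889.0 and 1127 against 96.08, 63.40 and 161.5, the largest named rise there (3.02 ± 0.23, adjusted p = 2.81e-06). Its MA probe set rose by 1.72 ± 0.16. The replication gene Gins2 (2.15 ± 0.33) and the passenger complex gene Cdca8 (1.38 ± 0.17) also rose on MB.

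The step before replication was mixed. Of 24 genes of G1 cyclins, retinoblastoma proteins and CDK inhibitors 8 rose and 3 fell. Cyclin D1 (Ccnd1) read 376.0, 368.3 and 430.2 with the shRNA against 110.2, 91.32 and 154.2 with the vector (1.63 ± 0.15, adjusted p = 5.15e-06), while cyclin D2 (Ccnd2) read 75.73, 97.33 and 65.96 against 162.3, 150.2 and 167.4 (-0.90 ± 0.14, adjusted p = 0.000563). The arrays of both cyclins were fully separated, in opposite directions. The CDK inhibitor Cdkn1a (p21), which MyoD induces at cell cycle exit, read 5379, 6090 and 6328 against 5504, 6166 and 8966 and did not pass (-0.18 ± 0.16, adjusted p = 0.487). Cdkn1c (p57) changed by -0.48 ± 0.21 and did not pass either (adjusted p = 0.146), except in the fit with a replicate block (adjusted p = 0.0306). The transcription factor E2f1 rose by 0.93 ± 0.18.

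Promoters of some of these genes are shown, chosen because they hold short motifs known from cell cycle genes. The letters searched, on both strands of windows reaching from 250 bases before to 50 after a start, were TTTGAA for the cell cycle homology region (CHR) bound by the DREAM and B-MYB complexes, CCAAT for NF-Y, and TTTGGCGC, TTTCCCGC, TTTGCCGC and TTTCGCGC for E2F. In the list of mitotic kinases, kinesins and cyclins, 16 of 29 windows held TTTGAA (55.2%), against 17.9% of all 32851 windows, and 18 held CCAAT (62.1%, against 37.4%). In the replication list 15 of 43 windows held an E2F sequence (34.9%, against 2.26%) and 8 held TTTGAA (18.6%, near the 17.9% of all windows). CCAAT was in 25 of the 43 (58.1%). It was also in 66.7% of the windows of the cholesterol list below, so it was not particular to cell cycle genes. These are matches of letters and not sites shown to be bound. Windows from RefSeq (GRCm38.p6) follow with the searched letters in capitals, TTTGAA and CCAAT on either strand for the first 3 and E2F for Uhrf1, each ending at the last base before the start. The first 3 held 7, 5 and 4 matches and Uhrf1 held 1.
Ube2c, chr2:164769701-164769928, plus strand: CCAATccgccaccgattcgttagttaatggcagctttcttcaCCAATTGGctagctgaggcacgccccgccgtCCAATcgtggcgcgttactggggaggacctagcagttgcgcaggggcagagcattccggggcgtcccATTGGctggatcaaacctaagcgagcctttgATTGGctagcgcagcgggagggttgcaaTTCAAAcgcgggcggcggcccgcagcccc
Cdk1, chr10:69352913-69353120, minus strand: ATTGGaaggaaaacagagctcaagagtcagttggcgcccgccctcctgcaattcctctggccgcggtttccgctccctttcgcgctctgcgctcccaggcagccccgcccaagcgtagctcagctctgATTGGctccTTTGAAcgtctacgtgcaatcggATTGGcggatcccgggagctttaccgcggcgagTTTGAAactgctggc
Ccnb2, chr9:70421555-70421721, minus strand: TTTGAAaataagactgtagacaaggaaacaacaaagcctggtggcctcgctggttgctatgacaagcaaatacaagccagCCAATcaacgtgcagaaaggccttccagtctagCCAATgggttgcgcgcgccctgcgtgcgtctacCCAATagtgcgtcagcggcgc
Uhrf1, chr17:56304128-56304312, plus strand: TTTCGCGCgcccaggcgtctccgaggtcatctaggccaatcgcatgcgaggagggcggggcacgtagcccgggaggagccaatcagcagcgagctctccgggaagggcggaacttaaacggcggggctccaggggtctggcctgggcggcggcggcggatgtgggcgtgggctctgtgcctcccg

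Of 25 tested genes for making cholesterol, 17 rose and none fell on MA (median 0.77). On MB 3 of 9 rose and none fell, where 1.35% of named genes rose. Hmgcs1, which makes the precursor of mevalonate, read 2338, 1939 and 1860 with the shRNA against 986.5, 765.2 and 460.5 with the vector (1.51 ± 0.20, adjusted p = 0.000112). Sqle, which oxidises squalene, read 842.4, 845.3 and 783.9 against 478.5, 436.1 and 422.1 (0.87 ± 0.10, adjusted p = 2.82e-05), and Cyp51, a later demethylase of the ring, 328.5, 368.5 and 320.8 against 174.8, 135.3 and 129.9 (1.14 ± 0.13). In these 3 genes the groups were apart. Srebf2, the gene of the transcription factor SREBP2 that drives the pathway, read 748.7, 702.3 and 513.1 against 519.7, 635.9 and 677.5, and its own messenger RNA did not pass (0.09 ± 0.16). On MB Insig1, which holds the SREBP carrier back, (1.26 ± 0.21) and the sterol carrier Stard4 (1.20 ± 0.19) rose. Among 23 genes of fatty acid synthesis and desaturation 10 rose and 2 fell on MA (1 fall without any 1 array except vector replicate 1). On MB 0 of 12 passed in limma (median -0.16), with 3 at an unadjusted p under 0.05, and 8 of the 12 values were negative. The desaturase Fads2 read 404.6, 422.8 and 483.6 on MA against 126.4, 103.7 and 109.4 (1.82 ± 0.12). The related Fads3 read 997.6, 1129 and 1349 against 2025, 2367 and 2757 and fell (-1.03 ± 0.14), so these neighbours of 1 gene family moved apart.

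The promoter of Hmgcs1 is shown as the one in the list that held the searched sterol element, TCACNCCAC with N for any base. The element was in 1 of 30 windows of the cholesterol list (3.33%) and in 1.24% of all windows, so the list was not marked by these letters. CCAAT, which NF-Y binds next to such elements, was in 20 of the 30 (66.7%).
Hmgcs1, chr13:119690201-119690350, plus strand: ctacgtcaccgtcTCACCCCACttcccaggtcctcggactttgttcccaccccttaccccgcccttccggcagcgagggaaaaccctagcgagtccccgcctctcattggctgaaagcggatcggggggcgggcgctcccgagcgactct

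Targets of Atf4, the transcription factor of amino acid shortage and related stress, held the largest number of falls among the lists. Of 35 tested members 27 fell and 1 rose (median -0.87). Atf4 itself read 2478, 2234 and 2752 with the shRNA against 3508, 3976 and 4350 with the vector (-0.66 ± 0.12, adjusted p = 0.00136). The stress factor Ddit3 (CHOP) read 203.7, 163.0 and 228.8 against 598.6, 591.4 and 587.6 (-1.52 ± 0.14), and the pseudokinase Trib3, a brake on Atf4, 278.0, 316.3 and 371.5 against 986.8, 906.3 and 1204 (-1.64 ± 0.21). The GTP-binding protein gene Gtpbp2 read 110.1, 109.0 and 120.2 against 427.7, 506.8 and 540.5 (-1.98 ± 0.13, adjusted p = 3.80e-07). No group of these genes overlapped. For Ddit3 the direction differed between the media: it rose by 0.74 ± 0.14 in GM, and the difference was -2.26 ± 0.20 (adjusted p = 1.74e-05).

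Within this group the enzymes that make serine, glycine and asparagine were lower in both media. The serine pathway enzyme Phgdh read 1818, 1935 and 1821 with the shRNA in DM and 2996, 3330 and 4324 with the vector (-0.91 ± 0.13), and it changed by -0.71 ± 0.13 in GM. Shmt2, the mitochondrial enzyme that turns serine into glycine, read 745.1, 707.7 and 736.5 against 1649, 1652 and 1911 (-1.23 ± 0.12), with -0.92 ± 0.12 in GM. Asns, which makes asparagine, read 2114, 2233 and 2311 against 3694, 4565 and 5073 (-0.99 ± 0.11), with -0.70 ± 0.11 in GM. For these 3 the difference between the media did not pass (adjusted p = 0.563, 0.294 and 0.306). Psph was carried by both designs as the same probe set and fell on MA (-0.93 ± 0.11) and on MB (-0.89 ± 0.16). The transporter gene Slc7a1, which imports basic amino acids, fell on MB by 1.11 ± 0.20 on the log2 scale. The member that rose was Ddit4 (0.40 ± 0.11). It lost that call without shRNA replicate 1, 2 or 3 or vector replicate 2 (adjusted p of 0.0548 to 0.0878).

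Cytosolic aminoacyl-tRNA synthetases, which charge tRNAs and many of which respond to Atf4, fell in 12 and rose in 0 of 18 cases (median -0.64). In GM 6 of them fell and 0 rose (median -0.35), where 2.69% of named genes fell. The difference between the media was negative in 3 and positive in 1 of the 18. Wars, for tryptophan, read 477.6, 572.5 and 596.7 with the shRNA against 1229, 1359 and 1566 with the vector (-1.31 ± 0.13, adjusted p = 7.36e-06). Sars, for serine, read 1746, 2083 and 2372 against 3245, 3670 and 4718 (-0.90 ± 0.15), and Gars, for glycine, 1595, 1623 and 1614 against 2660, 2573 and 3266 (-0.80 ± 0.10). These groups were apart, while Qars (0.13 ± 0.10), for glutamine, did not pass. Chaperones of the endoplasmic reticulum belong to other arms of the same stress response. Of 26 tested 6 rose and 4 fell, and Hspa5, the main chaperone, read 1532, 1477 and 1446 against 1369, 1366 and 1036 and did not pass (0.25 ± 0.12). The sensor Atf6 fell (-0.92 ± 0.14), and the kinase Eif2ak3, which acts upstream of Atf4, rose (0.81 ± 0.20). The 6 rises were 2 without shRNA replicate 1 and 3 without shRNA replicate 2 or 3.

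A composite element bound by Atf4 with C/EBP factors, searched as TGATGNAA, was in 10 of 41 windows of the Atf4 list (24.4%) and in 3.97% of all windows. The windows of Asns and Atf3 are shown with that element in capitals, read 5' to 3' in Asns and from the opposite strand in Atf3.
Asns, chr6:7693210-7693359, minus strand: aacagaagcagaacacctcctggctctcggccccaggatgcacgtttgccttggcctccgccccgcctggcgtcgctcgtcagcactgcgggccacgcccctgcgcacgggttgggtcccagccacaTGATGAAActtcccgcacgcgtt
Atf3, chr1:191183334-191183483, minus strand: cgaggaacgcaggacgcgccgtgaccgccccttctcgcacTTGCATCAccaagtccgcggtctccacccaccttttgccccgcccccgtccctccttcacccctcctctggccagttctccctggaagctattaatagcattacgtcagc
Atf3 read 36.12, 45.17 and 70.50 with the shRNA against 213.7, 223.5 and 174.0 with the vector (-1.76 ± 0.21), with all arrays apart. E-box letters CAGCTG, of the kind bound by MyoD and myogenin, were in 9 of 21 windows of the thick filament list (42.9%) and 9 of 24 of the thin filament list (37.5%), against 16.3% of all windows.

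Extracellular matrix genes were higher. Fibrillar collagens and their processing enzymes rose in 13 and fell in 0 of 27 cases (median 0.46), and basement membrane genes in 7 and 0 of 14 (median 0.64). Col4a1, a collagen of the basement membrane, read 1409, 1494 and 1528 with the shRNA against 656.4, 597.6 and 637.1 with the vector (1.21 ± 0.10, adjusted p = 2.40e-06). Col1a2, of fibrillar collagen I, read 4990, 5258 and 5596 against 2266, 2873 and 3378 (0.91 ± 0.13), while its partner Col1a1 read 571.1, 445.8 and 441.7 against 295.6, 483.8 and 397.5 and did not pass (0.32 ± 0.16). Col6a1, of the collagen VI that surrounds muscle cells, rose in DM (0.68 ± 0.10) and more in GM (1.43 ± 0.10), with a difference of -0.74 ± 0.15 (adjusted p = 0.00494). Of 27 fibrillar genes 10 rose in GM, where 4.36% of named genes rose and 2.69% fell. Col18a1 was an exception, since it rose in DM, from 148.1, 174.9 and 195.9 to 524.8, 636.7 and 626.9 (1.70 ± 0.12), and fell in GM (-1.20 ± 0.12).

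Small leucine-rich proteoglycans and other matricellular proteins rose in 7 and fell in 1 of 24 cases. Prelp, which links collagen to the basement membrane, read 234.1, 271.2 and 312.1 with the shRNA against 55.35, 48.36 and 88.29 with the vector (1.89 ± 0.21, adjusted p = 2.74e-05), and it rose in GM by 2.69 ± 0.21. The gelatinase Mmp2 read 1903, 1764 and 1880 against 730.9, 908.0 and 861.1 (1.14 ± 0.11), with 1.24 ± 0.11 in GM. Both were apart in DM. The 1 gene that fell was Ccn2, a matricellular growth factor (-0.65 ± 0.15, not past the threshold in a fit of the 6 DM arrays alone at an adjusted p of 0.0501), and without vector replicate 1 or 2 a second one fell.

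Genes of calcium-binding S100 proteins and of annexins, which bind membranes, rose in 10 and fell in 0 of 15 cases (median 0.67). S100a4 read 3765, 4047 and 3582 with the shRNA against 1008, 946.1 and 982.2 with the vector (1.94 ± 0.10, adjusted p = 5.83e-08). S100a10, the partner of annexin A2, read 2282, 2611 and 2539 against 1052, 933.1 and 869.3 (1.37 ± 0.10), and Anxa4 586.5, 582.5 and 562.2 against 284.6, 251.9 and 309.2 (1.00 ± 0.11). Their groups were well apart. In GM, S100a4 had means of 6534 with the shRNA against 6594 with the vector, and the difference of the changes was 1.96 ± 0.14 (adjusted p = 2.51e-06). Of 23 stress fibre and smooth muscle genes 10 rose and 0 fell. The alpha-actinin Actn1 of stress fibres (0.70 ± 0.11) and the filamin Flna (0.73 ± 0.10) were among them, while the smooth muscle markers Acta2 (-0.21 ± 0.17) and Tagln (-0.29 ± 0.15) did not pass. The count was 6 without shRNA replicate 1, shRNA replicate 2 or vector replicate 2.

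Glutathione and detoxification enzymes rose in 14 and fell in 2 of 39 cases (median 0.33), and 8 rose and 2 fell in GM. Cbr2, a carbonyl reductase, read 1135, 1449 and 1330 with the shRNA against 269.5, 230.0 and 265.5 with the vector (2.29 ± 0.11, adjusted p = 3.59e-08). The glutathione transferase Gstm2 read 200.9, 230.9 and 183.2 against 45.74, 46.20 and 59.20 (1.75 ± 0.13), and the epoxide hydrolase Ephx1 485.4, 591.2 and 585.8 against 254.6, 223.2 and 280.5 (1.09 ± 0.12). All were apart, and in GM they rose by 0.93 ± 0.11, 0.85 ± 0.13 and 0.85 ± 0.12. The 2 that fell were Gsto1 (-0.51 ± 0.15) and Gpx4 (-0.42 ± 0.13), and both calls depended on single arrays. Gsto1 did not pass without shRNA replicate 1, 2 or 3 or vector replicate 3 (adjusted p = 0.0748, 0.117, 0.0729 and 0.0908), and Gpx4 not without shRNA replicate 1 or 3 or vector replicate 2 or 3 (0.132, 0.0682, 0.0969 and 0.0821).

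In the insulin-like growth factor axis, which promotes both growth and differentiation of myoblasts, 8 of 23 genes rose and 2 fell. Igfbp3, a binding protein that limits the ligands, read 739.3, 683.8 and 606.2 with the shRNA against 269.3, 161.1 and 180.8 with the vector (1.69 ± 0.21, adjusted p = 8.57e-05). It rose on MB too (1.38 ± 0.17) and in GM on both designs (1.19 ± 0.21 and 1.07 ± 0.17), on MB not without shRNA replicate 3, vector replicate 1 or vector replicate 3 of GM (adjusted p = 0.0587, 0.0697 and 0.0588). The ligand Igf2, which differentiating myoblasts secrete, read 718.9, 772.2 and 872.4 against 1479, 1871 and 1575 and fell (-1.04 ± 0.27, adjusted p = 0.0154). In GM, where it is low, Igf2 went the other way, with means of 180.0 and 39.91 (1.95 ± 0.27), so the difference between the media was -2.99 ± 0.38 (adjusted p = 0.00023). Without shRNA replicate 1 or 2 or vector replicate 2 the fall of Igf2 in DM did not pass (adjusted p = 0.0583, 0.0509 and 0.0628), nor did it with a pseudocount of 5 (adjusted p = 0.0502), and the 2 falls numbered 0, 0 and 1. Igfbp2 read 285.5, 355.6 and 357.0 in DM against 130.0, 128.8 and 126.6 (1.27 ± 0.11) and fell in GM (-0.57 ± 0.11). The imprinted gene Mest rose by 1.13 ± 0.14.

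Genes of protein and RNA handling moved in smaller numbers, and these counts depended on single arrays. Of 23 ribosomal protein genes 0 passed in limma, with 1 at an unadjusted p under 0.05 and 2 falling without vector replicate 1. Of 33 splicing regulators 3 rose and 1 fell (median 0.27), and the rises numbered 8 without vector replicate 1, 5 without vector replicate 2 and 2 without shRNA replicate 1 or 2. Of 33 genes of ribosome biogenesis, 5 fell and none rose in DM (median -0.25), against 6.67% falling and 12.1% rising among named genes, and 27 of the 33 values were negative. In GM 8 fell and 0 rose (median -0.40), against 2.69% falling, with Nhp2 falling in both (-0.62 ± 0.13 and -0.89 ± 0.13). In DM the number was 3 without shRNA replicate 1, shRNA replicate 2 or vector replicate 2, and 9 without vector replicate 3. Proteasome subunits fell in 3 of 29 cases, or 6 without vector replicate 3. Interferon response genes, which a hairpin RNA can induce through double-stranded RNA sensors, rose in 3 and fell in 1 of 18 cases, or 6 and 1 without vector replicate 3. Of DEAD-box RNA helicases other than p68 and p72, 1 of 23 fell (Ddx54, -0.61 ± 0.12).

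Markers of other cell types were summed over each list. Fibroblast markers had summed MA signals of 557.7 to 611.0 with the shRNA against 345.1 to 401.6 with the vector, with no overlap (exact two-sided permutation p = 0.1, the smallest possible). Of its 11 genes on the array 6 were tested and 4 were under 30 on all 12 arrays. Pdgfrb, Cd34 and Tcf7l2 rose and 0 fell. In 1 other tested gene all shRNA arrays lay below all vector arrays, but it did not pass. Pdgfra, a defining marker, read 3.16, 8.73 and 18.69 with the shRNA against 1.26, 2.82 and 2.73 with the vector, low values with no overlap whose difference did not pass (0.50 ± 0.28, adjusted p = 0.267). In GM Cd34 (1.00 ± 0.16) and Pdgfra (1.23 ± 0.28, adjusted p = 0.0185) rose. On MB the sum of 3 fibroblast markers overlapped, at 416.0 to 550.6 with the shRNA and 353.1 to 571.3 with the vector. The rise of Tcf7l2 did not pass without shRNA replicate 1, shRNA replicate 2 or vector replicate 2 (adjusted p = 0.157, 0.0986 and 0.116). The part of fibroblast-like expression in the matrix results was not tested. Adipocyte, osteoblast and cartilage, macrophage, endothelial, and neural and Schwann cell markers overlapped between the groups on MA, and 0 of their genes passed in limma there, with 1 at an unadjusted p under 0.05. On MB 0 of them passed either, and the neural markers Map2 (1.10 ± 0.48) and Gfap (-1.30 ± 0.59) had an unadjusted p under 0.05. The log2 ratio of 3' to 5' control probe sets lay between -0.058 and 0.016 with the shRNA and between -0.084 and 0.03 with the vector on MA. On MB the ranges were -0.031 to 0.025 and -0.044 to -0.035, with no overlap (exact permutation p = 0.1), and the part of this in the MB results was not tested.

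The MB design gave fewer calls. Of 19303 tested probe sets 151 were higher (0.782%) and 75 lower (0.389%) with the shRNA, 103 and 52 of them at least 2-fold. With 1 probe set per named gene the shares were 1.35% and 0.667% of 8695 genes. Without the mean-variance trend in limma the counts were 11 and 8. Of the MB genes named in the text, Bub1b, Dnmt1, Rtl3, Mss51, Nfib, Dpysl2, P2rx3, Cfap52, Dhrs7c and 1 probe set of Myom2 passed without it, and 14 other probe sets did not (adjusted p of 0.0575 to 0.214). Without 1 array at a time the counts lay between 73 and 172 and between 45 and 78, with 81, 73 and 77 higher without shRNA replicate 1, 2 or 3, and 45 and 49 lower without shRNA replicate 1 or 3. On both designs 100 probe sets were tested, of which 76 had the same sign. Of 2566 genes with different probe sets on the designs, 51 passed on MB, 46 of these had the same sign on MA, and 32 passed on MA, all 32 in the same direction.

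Several of the largest falls on MB were of proteins of the sarcomere and the muscle calcium store. The largest was that of P2rx3, the gene of an ATP-gated channel, which read 20.47, 32.16 and 16.27 with the shRNA against 451.6, 330.9 and 508.7 with the vector (-3.55 ± 0.51, adjusted p = 0.00125). It was near the floor of MA too, at 3.44, 3.02 and 3.67 against 129.9, 77.08 and 100.1 (-2.65 ± 0.22). Mybpc2, the fast myosin-binding protein C, read 20.85, 106.3 and 24.94 against 401.5, 424.9 and 449.5 (-2.98 ± 0.53, adjusted p = 0.00679). At 1 probe set of Myom2, an M-band protein, the shRNA arrays read 4048, 3586 and 3714 and the vector arrays 29040, 22290 and 27020 (-2.78 ± 0.23, adjusted p = 4.46e-06). At a brighter one they read 8917, 9447 and 9795 against 27650, 22280 and 29870 (-1.49 ± 0.19). All of these were apart, by different ratios within Myom2. Dhrs7c, a dehydrogenase of the muscle calcium store, read 736.2, 783.1 and 690.7 against 3746, 2694 and 3145 (-2.08 ± 0.23).

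Among the rises on MB, the DNA methyltransferase Dnmt1 read 374.5, 471.0 and 292.6 with the shRNA against 56.55, 43.00 and 29.59 with the vector (2.77 ± 0.31, adjusted p = 0.000103). Its MA probe set rose by 0.99 ± 0.10. Nfib, a nuclear factor I gene of myogenic and other progenitors, read 1455, 1156 and 1031 against 340.6, 270.0 and 307.9 (1.93 ± 0.20), and Dpysl2, a microtubule-binding protein, 4634, 6135 and 4643 against 1923, 1274 and 1268 (1.79 ± 0.19). Rtl3, derived from a retrotransposon, read 1328, 1223 and 1169 against 237.5, 166.6 and 262.1 (2.42 ± 0.25) and rose in GM as well (2.62 ± 0.25). In each of them the lowest shRNA array was more than 2-fold above the highest vector array. Mss51, a gene of skeletal muscle, rose from 197.6, 80.73 and 128.1 to 588.8, 809.5 and 940.0 (2.45 ± 0.39), against the direction of the contractile genes.

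**Figure D4:**
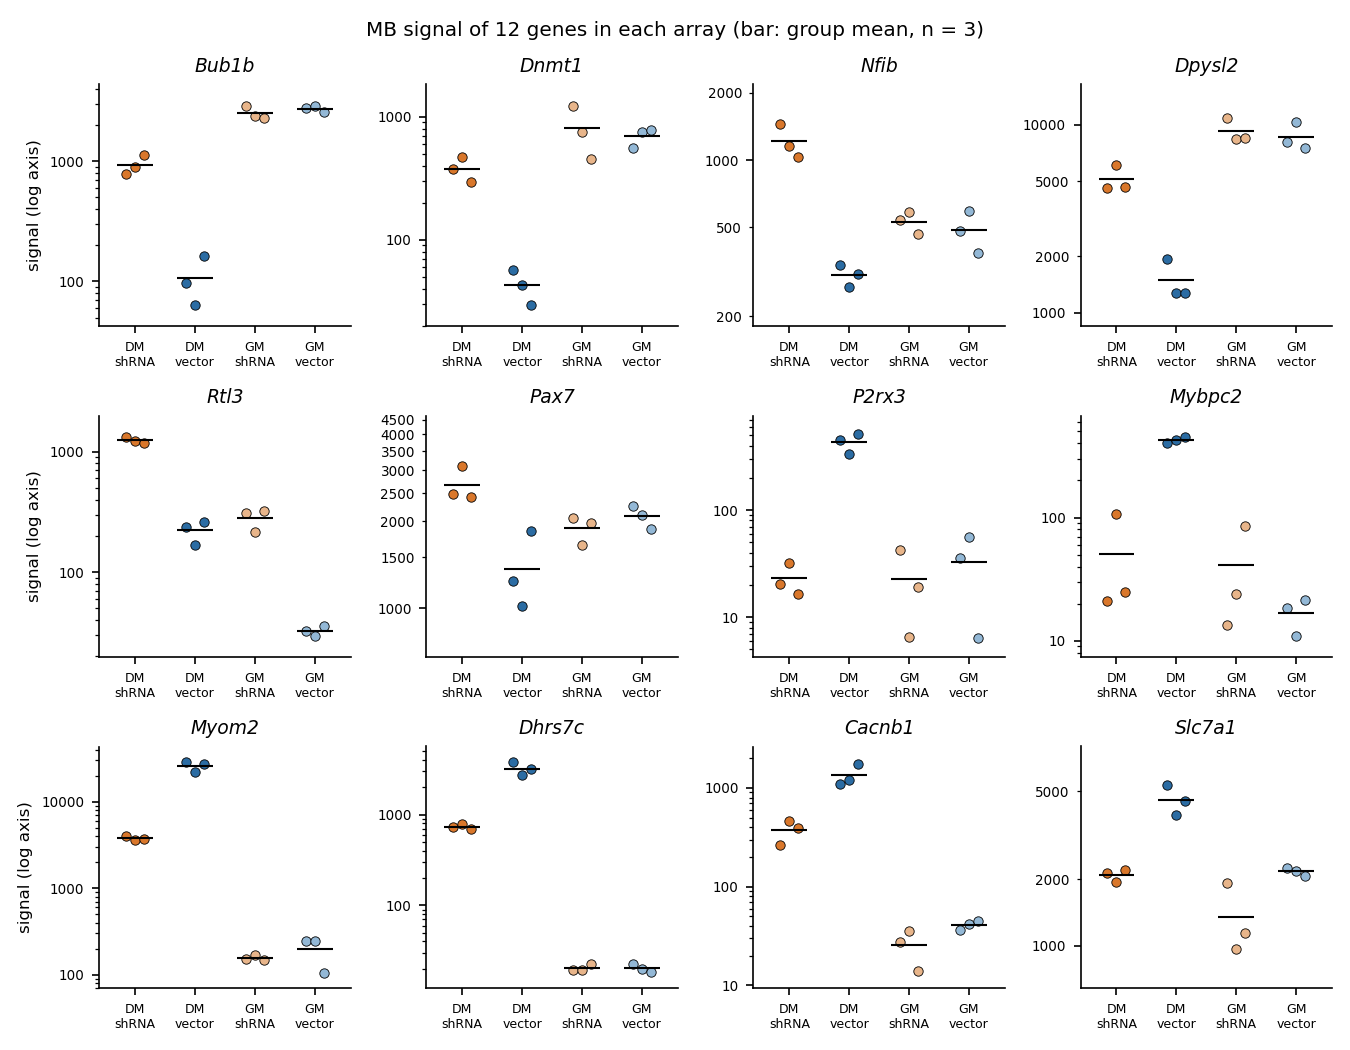
Deposited MB signal (log axis, arbitrary units) of 12 genes in each array of the DM and GM groups, with bars at the group means. Bub1b, Dnmt1, Nfib, Dpysl2, Rtl3 and Pax7 lie higher with the shRNA in DM, and P2rx3, Mybpc2, Myom2, Dhrs7c, Cacnb1 and Slc7a1 lower.

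The number of calls in GM depended on how the spread was estimated. With the spread estimated over all 12 arrays of a design, on MA 573 probe sets were higher (3.99%) and 369 lower (2.57%) in GM, and on MB 40 (0.207%) and 13 (0.0673%), against the 1533 and 897 on MA and 151 and 75 on MB in DM. In a fit of the 6 arrays of each medium alone, MA had 848 higher and 561 lower calls in GM against 937 and 636 in DM, and MB 32 and 12 against 46 and 55. Back in the fit of 12 arrays, 181 MA probe sets rose in both media, 11.8% of those that rose in DM and 31.6% of those in GM, and 94 fell in both (10.5% and 25.5%). On MB 11 rose in both (7.28% and 27.5%) and 0 fell in both. Opposite calls were also found on MA, with 53 probe sets higher in DM and lower in GM and 38 the reverse. The comparisons in DM and in GM share no arrays. The difference of the changes, DM minus GM, passed for 787 MA probe sets with a positive (5.48%) and 643 with a negative value (4.48%). It passed on MB for 43 (0.223%) and 32 (0.166%). Of the MA probe sets that rose in DM 632 passed this test of the difference (41.2%), and of those that fell 412 (45.9%). These counts moved with single arrays. In GM on MA the higher calls numbered 334, 340 and 326 without shRNA replicate 2, 3 or 4, and 340 and 271 without vector replicate 1 or 3. The lower calls were 217, 203 and 171 without those shRNA arrays, and 156, 138 and 219 without vector replicate 1, 3 or 4. In GM on MB the higher calls numbered 5, 11 and 16 without shRNA replicate 1, 2 or 3, and 10 and 12 without vector replicate 1 or 3. The lower ones numbered 6 without shRNA replicate 2 and 4, 7 and 7 without vector replicate 1, 2 or 3. The MA differences numbered 510 and 403 without shRNA replicate 2 of DM. The positive MB differences numbered 21 without shRNA replicate 2 of DM, 21 and 20 without shRNA replicate 2 or 3 of GM, and 22, 24 and 26 without vector replicate 1, 2 or 3 of GM. The negative ones numbered 18, 18 and 19 without shRNA replicate 1, 2 or 3 of DM, 18 and 20 without shRNA replicate 2 or 3 of GM, and 14 and 18 without vector replicate 1 or 3 of GM.

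The gene groups differed in this respect. Of the 31 mitotic genes 23 had a positive difference and 0 rose in GM, and of the 38 replication genes 23 had one and 7 fell in GM. The Z-disc and M-band list had 12 of 28 genes with a negative difference. In contrast the fibrillar collagens had 3 genes with a positive and 3 with a negative difference among 27, and the serine and asparagine enzymes named above had none. Genes that rose in both media included the secreted Wnt modulator Sfrp2, at 292.4, 300.8 and 311.2 with the shRNA in DM and 92.31, 107.6 and 113.7 with the vector (1.41 ± 0.13). In GM its means were 2530 and 262.5 (3.19 ± 0.13), and the difference was -1.79 ± 0.18 (adjusted p = 4.61e-05). The receptor gene Scara5, of ferritin uptake, read 264.6, 273.1 and 274.0 against 82.98, 106.2 and 46.56 in DM (1.66 ± 0.24) and rose in GM by 1.83 ± 0.24. Its GM means were low, at 58.08 (shRNA) and 5.42 (vector). The chemokine Cxcl12 rose by 1.63 ± 0.13 and 1.15 ± 0.13. Reep6 fell in both media (-1.78 ± 0.18 and -1.12 ± 0.18), at low GM means of 13.18 (shRNA) and 46.59 (vector).

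**Figure D5:**
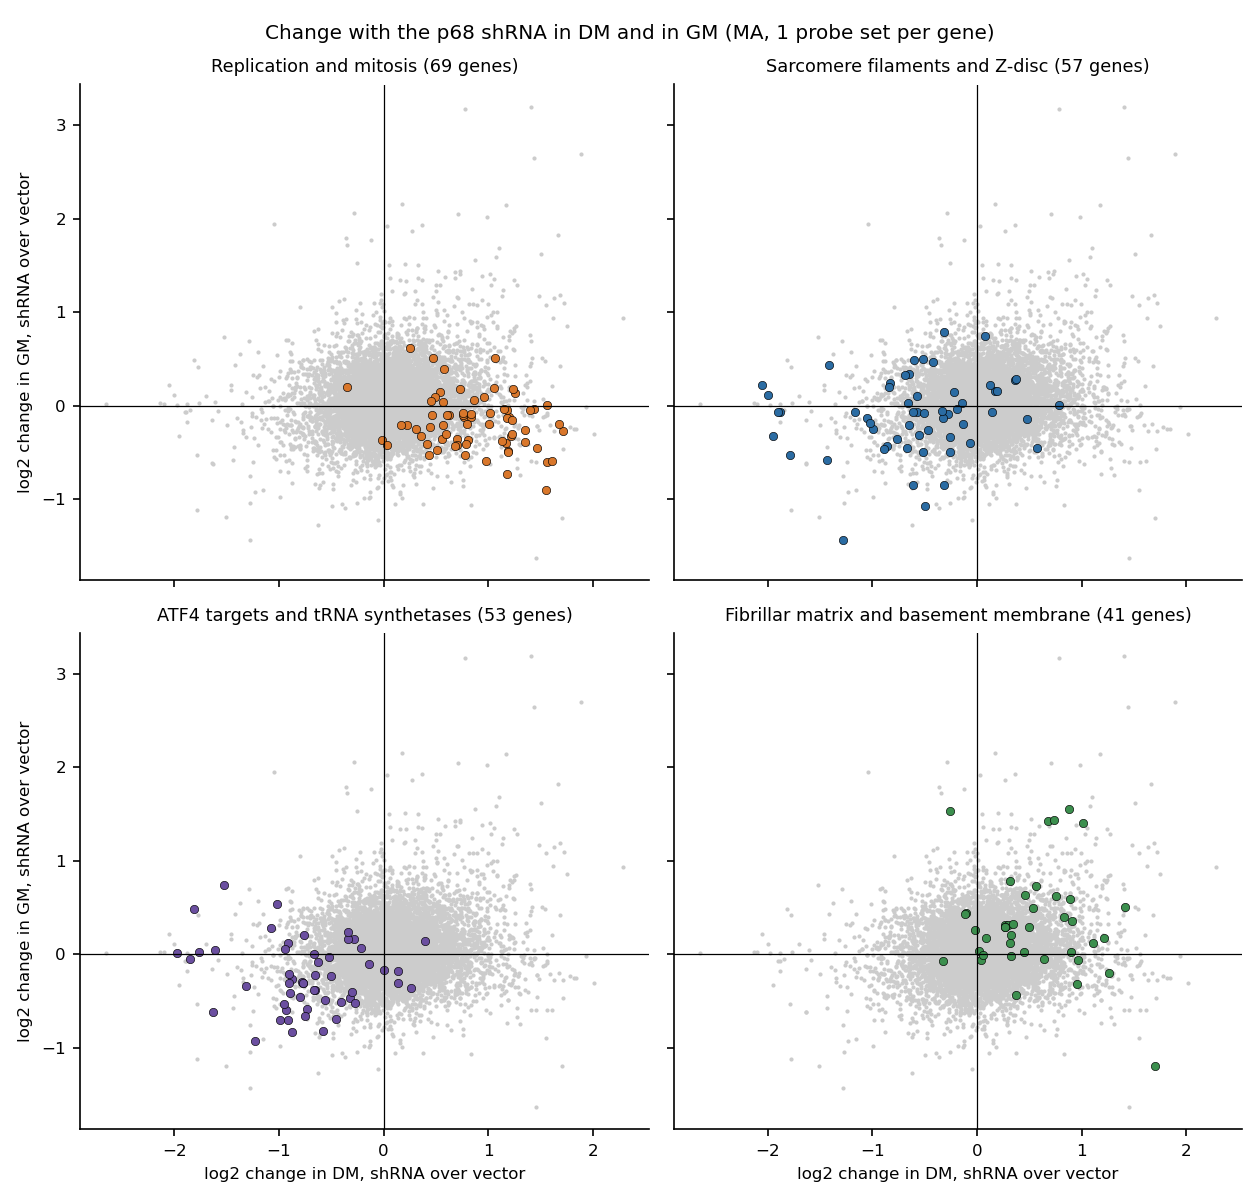
Log2 change with the p68 shRNA in DM (x axis) against that in GM (y axis) for 1 probe set per gene of the 8639 named genes on MA (grey), with a different set of gene groups coloured in each of 4 panels; the x and y changes come from different arrays. Right of 0 lie 67 of 69 replication and mitosis genes (52 of them below the horizontal line) and 36 of 41 matrix genes (27 above it), and left of 0 lie 47 of 57 sarcomere genes and 48 of 53 ATF4 and tRNA charging genes (33 of these below it).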

How the data were processed

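RNA of C2C12 cells was hybridised to 2 oligonucleotide array designs, MA and MB, with 12 arrays each in 4 groups of 3. The authors deposited 1 signal intensity per probe set and array, made with MAS5 per the submitters' processing notes. Every array had a mean of 150 after 2% of the values were trimmed at each end, and because the 2 designs were scaled separately each was tested by itself. MAS5 settings, detection calls and the annotation behind the probe sets are not stated in the labels or headers, and arrays of this kind carry no read depth. Groups were taken from the sample titles.

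Signals were taken to log2(signal + 15). Control probe sets were left out (64 per design), and a probe set was tested where at least 3 of 12 arrays reached 30. limma 3.58.1 in R 4.3.3 fitted 4 group means over the 12 arrays of a design with a mean-variance trend, with Benjamini-Hochberg adjustment at 0.05; the code was tested on simulated data. Single values were compared by an exact permutation test. On MA 20380 of 22690 probe sets had 1 gene symbol, 691 several and 1555 none; on MB 14661, 245 and 7605 of 22575. Lists were counted with 1 probe set per gene, the one with the highest mean log2 value.

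The members and lists were chosen with earlier results of these data known. The text names, per design and direction, up to 15 genes with the largest change among separated, passing probe sets at a mean signal of 150 or more, up to 5 members per list at 100 or more, the 10 largest differences between the media, and Ddx5, Ddx17, Myod1, Myog, Mef2c, Ckm and Myh3. Of 194 pairs of gene and design that are named, 44 fall outside this rule and were chosen after their values were seen. Promoter windows are those of RefSeq (GRCm38.p6), matched by symbol.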

Additional observations from a re-analysis of the deposited data

Results flagged for a closer look

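For 20 probe sets the change with the p68 shRNA differed most between DM and GM, by limma's test of the difference (the change in DM minus that in GM, 3 arrays per group, standard error after ±). They are given as values, with mean signals of shRNA and then vector where these are shown.

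On MA the signs of the 2 changes were opposite for several. The cathepsin gene Ctsw had means of 69.4 and 17.9 in DM and of 16.6 and 74.0 in GM (difference 3.08 ± 0.54, adjusted p = 0.00249). Its rise in DM did not pass without shRNA replicate 2 or 3 (adjusted p = 0.0601 and 0.054). Its fall in GM did not pass without shRNA replicate 3 or 4 or vector replicate 1 or 3 of GM (adjusted p of 0.062 to 0.101). Col18a1, the basement membrane collagen, differed by 3.06 ± 0.19 at its second probe set (adjusted p = 5.93e-07). The synaptic organiser gene Cbln1 had means of 50.6 and 6.95 in DM and of 49.98 and 110.9 in GM (2.58 ± 0.29, adjusted p = 7.86e-05). Its fall in GM did not pass without shRNA replicate 2 or vector replicate 1 or 3 of GM (adjusted p of 0.0512 to 0.0656), or with a pseudocount of 5 (adjusted p = 0.0576). A second probe set of the fatty acid carrier Fabp5 had means of 342.3 and 86.8 in DM and of 704.5 and 1092 in GM (2.43 ± 0.18, adjusted p = 2.51e-06). Its fall in GM did not pass without vector replicate 3 of GM (adjusted p = 0.0532). The growth factor gene Igf2 fell in DM and rose in GM (-2.99 ± 0.38, adjusted p = 0.00023). Cd24a, of a cell surface protein, had means of 58.2 and 180.7 in DM and of 288.7 and 119.9 in GM (-2.57 ± 0.31, adjusted p = 0.000153).

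For the other 4 on MA the change in GM did not pass. A second probe set of Ankrd1, the stretch-responsive sarcomere protein, had means of 638.4 and 3852 in DM (-2.78 ± 0.17, adjusted p = 5.93e-07). P2rx3, at mean signals under 4 in the groups other than DM vector, differed by -2.66 ± 0.31 (adjusted p = 0.000108). Fen1, a nuclease of DNA replication, had means of 461.2 and 176.9 in DM and of 873.0 and 1622 in GM (2.45 ± 0.53, adjusted p = 0.00884). Its DM vector arrays were uneven, at 249.2, 50.28 and 231.2. Its rise in DM did not pass in a fit of the 6 DM arrays alone (adjusted p = 0.0578). Polr2f, a polymerase subunit gene, differed by -2.48 ± 0.51 (adjusted p = 0.00648). Its DM arrays overlapped, at 20.24, 115.8 and 26.20 with the shRNA against 124.2, 111.1 and 130.8 with the vector. The fall in DM did not pass without shRNA replicate 1 or 3 or vector replicate 1 or 2 (adjusted p of 0.052 to 0.125). Another Polr2f probe set changed in DM by -0.57 on MA (adjusted p = 0.00202) and by -0.50 on MB (adjusted p = 0.233).

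On MB the differences of Bub1b (3.15 ± 0.33, adjusted p = 0.000173), Dnmt1 (2.66 ± 0.44, adjusted p = 0.00753) and the M-band gene Myom2 (-2.56 ± 0.32, adjusted p = 0.00147) were those of genes described above. Cfap52, of cilia, differed by -3.30 ± 0.53 (adjusted p = 0.00689), Gin1 by -3.31 ± 0.54 (adjusted p = 0.00753), and Aff3 by -3.01 ± 0.42 (adjusted p = 0.00256), with Aff3 means of 557.8 and 948.2 in DM and of 165.8 and 23.9 in GM. The differences of Mybpc2 (-3.59 ± 0.75, adjusted p = 0.046), Lrmda (-3.52 ± 0.70, adjusted p = 0.0329), the cadherin gene Cdh26 (2.99 ± 0.63, adjusted p = 0.0455) and the early response gene Egr3 (2.50 ± 0.51, adjusted p = 0.0356) each did not pass without any 1 of 10 of the 12 arrays. The arrays without which they still passed were shRNA replicate 2 of DM and shRNA replicate 1 of GM for Mybpc2, and shRNA replicate 3 and vector replicate 2 of DM for Lrmda. They were vector replicate 2 of DM and shRNA replicate 3 of GM for Cdh26, and vector replicate 1 of DM and vector replicate 3 of GM for Egr3. Without the mean-variance trend 0 MB differences passed in limma, with 1479 of 19303 at an unadjusted p under 0.05 (7.66%).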

How the results depend on the processing

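Of the 158 MA calls named in DM, 141 passed in each of the 6 fits without 1 DM array, and of the 24 MB calls 20 did; none of these calls changed sign under the settings run. They were pseudocounts of 5 and 50, no filter or a filter at a signal of 100, quantile normalization, limma without the mean-variance trend, the arrays of 1 medium alone, and the replicate block. On MA the fit of the 6 arrays of a medium gave 937 higher and 636 lower calls in DM and 848 and 561 in GM, and limma without the trend 233 lower ones in GM. On MB the fit without the trend gave 11 higher and 8 lower calls in DM, 5 and 4 in GM, and 0 and 0 for the difference of the media. Quantile normalization gave 68 and 35 on MB in GM and 68 positive differences, and the 6 arrays of DM alone 46 higher calls. The cause was not tested.

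Without 1 array at a time the MA calls numbered 1078 to 1738 higher and 653 to 1057 lower in DM, 271 to 416 and 138 to 219 in GM, and 510 to 1097 and 403 to 953 for the difference. The MB calls numbered 73 to 172 and 45 to 78 in DM, 5 to 29 and 4 to 12 in GM, and 20 to 53 and 14 to 30 for the difference. The named genes that did not pass and changed sign in these fits were Acta1 (-0.48 to 0.0090), Actc1 (-0.50 to 0.017), Cdkn1a (-0.33 to 0.023), Cox6a1 (-0.039 to 0.084), Cox8a (-0.28 to 0.070, and 0.052 with quantile normalization) and Srebf2 (-0.022 to 0.25).

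The labels do not say that a shared replicate number marks a shared culture or batch. The numbers were therefore not taken as pairs, and whether they mark a batch was not tested. Deviations of same-numbered MA arrays correlated at 0.278, -0.139 and 0.128 in DM and at 0.143 and 0.093 in GM. Those of differently numbered ones correlated at -0.244 to 0.129 in DM and at -0.108 to 0.077 in GM. On MB all lay between -0.064 and 0.074. The replicate block gave 1054 higher and 720 lower MA calls in DM, against 937 and 636 in the same 6 arrays without it. On MB it gave 42 and 47 in DM, against 46 and 55, and 13 and 5 in GM, against 32 and 12. It was not run for GM on MA or for the differences, where the numbers are not shared in full. The median residual SD of 0.523 on MB against 0.214 on MA limits what the MB design can show.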

Other observations

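Other gene groups were measured on MA in DM and are given here as values, against the background of 12.1% of named genes rising and 6.67% falling. In the list of 12 tested genes that holds p68, p72 and coregulators of myogenesis, 2 rose and 2 fell, the falls being the hairpin's target Ddx5 (-0.68 ± 0.15) and Smarcd3 (-0.61 ± 0.12). Hdac1, a histone deacetylase that can bind MyoD, read 356.5, 389.2 and 329.5 with the shRNA against 253.7, 211.2 and 214.8 with the vector (0.63 ± 0.11, adjusted p = 0.000959), and the coactivator Ncoa1 rose by 0.72 ± 0.15. Of 9 genes of the microRNA pathway, in which p68 itself takes part, 1 rose and 1 fell. That is a share near the background, and both calls depended on single arrays. Tnrc6a did not rise without shRNA replicate 1 or 2 or vector replicate 1 or 2, and Xpo5 did not fall without shRNA replicate 3. Nuclear lamins of the B type were higher: Lmnb1 read 350.6, 432.5 and 411.4 against 154.8, 188.4 and 204.3 (1.07 ± 0.20), and Lmnb2 454.8, 461.6 and 525.8 against 192.5, 265.4 and 227.9 (1.03 ± 0.12). In neither lamin did the groups overlap. Genes of DNA repair and its checkpoint rose in 7 and fell in 0 of 19 cases (median 0.43), H2ax, a histone variant of DNA damage marking, by 0.62 ± 0.12 among them.

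Named stress and early response genes moved in both directions. In the lists of p53 targets and of AP-1 and immediate early genes, the share that rose was under the 12.1% of all named genes. The shares that fell were above 6.67%, but by few genes. In the list of p53 targets 3 of 19 fell and 2 rose. Gadd45a, an inhibitor of cell division in stress, read 320.1, 179.6 and 181.2 with the shRNA against 937.3, 866.5 and 747.3 with the vector (-1.88 ± 0.20, adjusted p = 2.08e-05), and the kinase Plk2 read 506.8, 534.0 and 465.2 against 1178, 1197 and 1165 (-1.21 ± 0.13). Their groups were apart by more than 2-fold between the nearest arrays. The 2 rises were 1 without shRNA replicate 1 or 2 or vector replicate 2 or 3, and 4 without vector replicate 1, and the 3 falls were 2 without shRNA replicate 1 or 2. Of 26 genes of the AP-1 and immediate early list 2 rose and 4 fell, with 1 rise without shRNA replicate 1 or 2 and 2 falls without shRNA replicate 1 or vector replicate 2. Among them Egr1, a transcription factor of the early growth response, rose from 460.1, 376.6 and 319.6 to 683.1, 824.1 and 707.0 (0.92 ± 0.15), while Klf4 fell from 230.9, 190.5 and 188.7 to 112.0, 103.2 and 102.5 (-0.85 ± 0.14). Matrix proteases and their inhibitors rose in 4 and fell in 1 of 20 cases, or 3 and 2 without vector replicate 1. Ctsl of the lysosome fell by 0.63 ± 0.09 on the log2 scale, and the collagen processing enhancer Pcolce read 1538, 1602 and 1564 against 778.6, 582.2 and 612.7 (1.25 ± 0.11).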
